A study of Homo sapiens with 3 samples.

Results

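Treatment with YK-4-279 and knockdown of the oncogenic fusion EWS-FLI1 were set against each other in TC32, an established Ewing sarcoma cell line. The knockdown library, titled shEF, and the library of cells given 3 µM YK-4-279, a small molecule in DMSO, for 15 hours are the 2 of 3 RNA-seq libraries compared. The last, labelled only as WT Control, was kept out of the ratio and is quoted only to show where a gene stood. All cells were grown alike, in RPMI with serum. The labels do not give the knockdown's duration or its hairpin, nor any vehicle or hairpin given to the control, so the times of the treatments cannot be matched. Of 22714 gene names in the files, 9939 reached a mean of 1 FPKM across the 3 libraries and entered the comparison. FPKM is the number of fragments relative to transcript length and library size. With 1 library a side, every value describes these libraries, no spread between cultures is known, and no test was made. In bulk RNA, fewer cells of a type and less RNA per cell cannot be told apart.

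EWS-FLI1 joins the amino-terminal part of the RNA-binding protein EWSR1 to the DNA-binding domain of the ETS factor FLI1. The fusion activates one set of genes, often from GGAA repeats, and holds down another that includes matrix, adhesion and contractile genes of mesenchymal cells. Knockdown lowers the transcript and so the protein. YK-4-279 is known as an inhibitor of the contact between the fusion and the RNA helicase DHX9.

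Levels are given as scaled FPKM, in which each library was multiplied so that its median compared gene matched the others. The factors were 1.44 for the knockdown library, 2.12 for the YK-4-279 library and 0.325 for the control. A log2 ratio is the difference of log2(scaled FPKM + 1), YK-4-279 minus knockdown, so a positive value means higher with YK-4-279. Adding 1 understates the ratios of scarce genes. Higher and lower mean a log2 ratio of 1 or more in either direction, which is 2-fold. Standard errors (SE) come from fragments estimated per gene, 14996480 in the knockdown library and 18752804 with YK-4-279 over the compared genes, and cover counting error only. Their median was 0.079. Where a list of genes is described, its median stands beside a median of -0.01 over all compared genes. Its counts of higher and lower genes stand beside shares of 15.3% higher and 14.5% lower over all compared genes.

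The partners of the fusion are given first, by gene symbol, since the fusion transcript itself was not measured. FLI1, whose 3′ exons are part of the fusion transcript, stood at 2.13 scaled FPKM in the knockdown library and at 17.6 with YK-4-279, against 21.4 in the control (log2 ratio 2.57, SE 0.06). FLI1 was thus lowest in the library labelled as knockdown. As deposited, FLI1 had 65.88 FPKM in the control, 1.48 after knockdown and 8.293 with YK-4-279, so its nearness to the control with the compound rests on the scaling. EWSR1, which the normal allele also transcribes, was at 58.5 and 76.9 scaled FPKM, a log2 ratio of 0.39 that did not reach the threshold. DHX9 stood at 51.5 after knockdown, 87.4 with YK-4-279 and 133.8 in the control (log2 ratio 0.75). The ratios were also taken less the median of genes of similar mean level over both compared libraries, as explained below. On that measure DHX9 was at -0.08, EWSR1 at -0.45 and FLI1 at 2.64. Levels of the protein were not measured.

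Of the 9939 genes, 1516 (15.3%) were at least 2-fold higher with YK-4-279 than after knockdown and 1442 (14.5%) were at least 2-fold lower, so 29.8% differed by that much either way. At least 8-fold, 90 genes were lower and 44 higher. The control stood nearer the YK-4-279 library than the knockdown library for 7882 genes (79.3%). Among genes lower with YK-4-279 this held for 94.9%, and in 64.1% of them the control was below both libraries. Among genes higher with YK-4-279 it held for 90.8%, and in 56.1% of them the control lay between the libraries. On values as deposited, without scaling, the split was 505 higher and 2136 lower. The control's place depends on the scaling. As deposited, the control was above both libraries for 90.8% of genes and nearer YK-4-279 for 34.8%. That last share was 98% among genes higher on scaled values and 20.2% among genes lower on them. Levels in the control are scaled values unless deposited ones are named, and an order against the control holds on that scale only where not said otherwise.

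**Figure D1:**
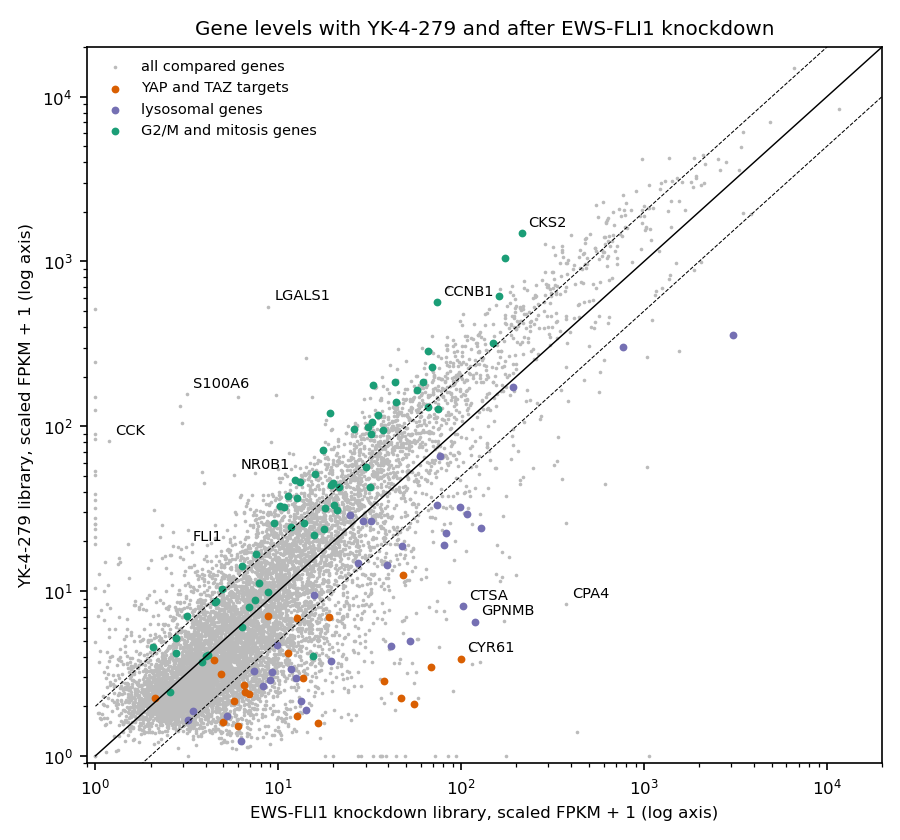
Scaled FPKM + 1 of each compared gene in the knockdown library (x axis, log) and the YK-4-279 library (y axis, log), 1 point per gene, with the line of equality and dashed lines at 2-fold. Lysosomal genes (purple) and YAP and TAZ targets (orange) lie mostly below the lower dashed line, and more of the G2/M genes (green) lie above the upper one than below it. A point at 1 on an axis is a gene at or near 0 in that library.

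The direction of the ratio moved with how abundant a gene was. When genes were ranked by control level and cut into 5 equal groups, 43.9% of the most abundant were higher with YK-4-279 and 3.27% lower, and their median log2 ratio was 0.91. In the scarcest group 2.77% were higher and 29.6% lower, with a median of -0.58. Ranked by the compared libraries instead, the most abundant group had a median of 0.78 and the scarcest one of -0.23. Transcript length moved with the ratio less, with medians of 0.22 in the shortest and -0.31 in the longest group. For this reason most lists are also given relative to genes of like level. This is the log2 ratio less the median of genes with a similar mean log2 level over both compared libraries. Such genes need not be alike in each library, and the ranking uses the same values as the ratio. On that measure 988 genes (9.94%) were higher and 1339 (13.5%) lower. With genes of like level taken from the control instead, 776 (7.81%) were higher and 1176 (11.8%) lower. The part of level in the lists' ratios was not tested beyond this. The filter also bears on the group scarcest in the control, since a gene near 0 there could enter only through the other libraries. Deposited values ran lower with YK-4-279, at a median of 0.671 times knockdown, so the filter favours genes high after knockdown. With the filter at 5 FPKM the median over all compared genes was 0.35, against -0.01. How much of the pattern by control level, or of the list medians below 0, came from the filter was not tested.

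**Figure D2:**
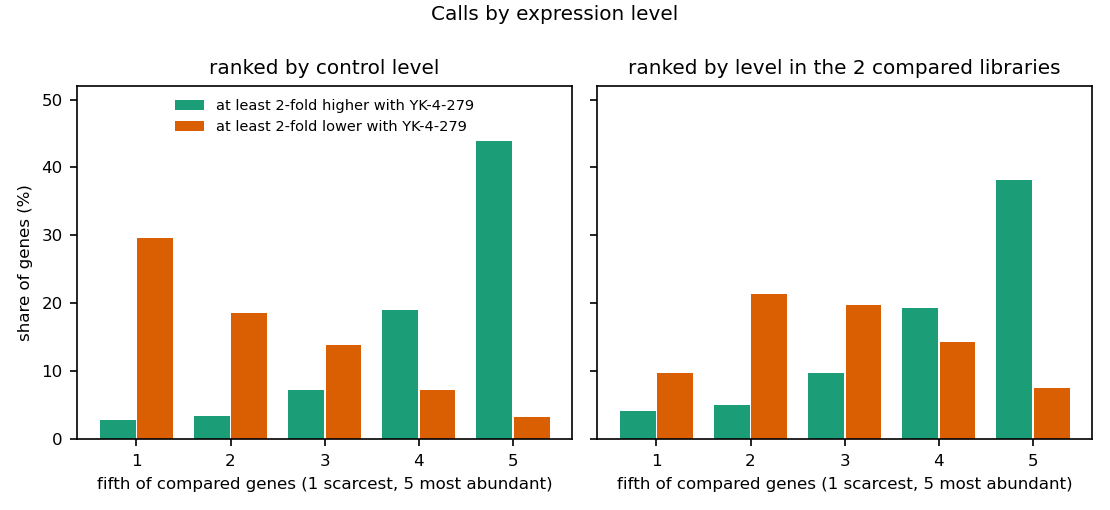
Share of genes (y axis, percent) at least 2-fold higher (green) or lower (orange) with YK-4-279 than after knockdown, in 5 equal groups of the compared genes (x axis) ranked by control level (left) or by level in the compared libraries (right). The green share reaches 43.9% and 38.1% in the most abundant group.

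The 12 genes with the highest ratios were led by CCK, the peptide cholecystokinin, at 80.6 scaled FPKM with YK-4-279 and 0.181 after knockdown (log2 ratio 6.11, SE 0.09). The control was also low, at 0.206. LGALS1, the sugar-binding galectin-1, had 530 with YK-4-279, 7.79 after knockdown and 4.92 in the control (5.92, SE 0.10). S100A6, a small calcium-binding protein, had 156, 2.17 and 5.38 in the same order (5.63, SE 0.13). All 3 genes were thus high with the compound alone.

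CES1, a carboxylesterase, had 131 scaled FPKM with YK-4-279, 1.90 after knockdown and 36.5 in the control (log2 ratio 5.51). TNFAIP6, a hyaluronan-binding protein, had 104, 1.97 and 15.2 (5.15). On scaled values the control lay between for both, but as deposited CES1 was higher in the control (112.3 FPKM) than with YK-4-279 (61.91). MBD3L2 and MBD3L3 had log2 ratios of 4.63 and 3.99, but they are near-identical copies between which reads may have been divided. CRABP1, which binds retinoic acid, stood at 30.0 with YK-4-279 and 1.08 after knockdown (3.90), and ARHGDIB at 51.8 and 2.81 (3.79).

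PSMB8, a catalytic subunit of the immunoproteasome, had 14.1 scaled FPKM with YK-4-279 and 0.121 after knockdown (3.75), against 0.024 in the control. DNAJC15, a mitochondrial co-chaperone, had 11.7 and 0.046 (3.60), and 0.035 in the control. These genes were nearly silent without the compound. MLIP, the last of the 12, had 18.2, 0.515 and 11.6 in the YK-4-279, knockdown and control libraries (3.67).

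All 12 genes with the lowest ratios were scarce in the control, at 1.40 scaled FPKM or less, and abundant after knockdown. Abundance after knockdown is what this ranking selects for. CPA4, a carboxypeptidase, had 7.34 with YK-4-279, 372 after knockdown and 0.080 in the control (log2 ratio -5.48, SE 0.06). PTX3, a long pentraxin, had 1.48, 89.3 and 0.131 (-5.19), and EFEMP1, a fibulin of the matrix, had 2.69, 126 and 0.113 (-5.10). With YK-4-279 these genes stood above the control by far less than after knockdown.

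FABP4, a fatty acid carrier, had 2.60 scaled FPKM with YK-4-279 and 114 after knockdown (-4.99). A2M, the protease inhibitor alpha-2-macroglobulin, had 5.57 and 171 (-4.71), and DKK1, a secreted Wnt antagonist, had 1.24 and 56.9 (-4.69) and was listed at 0 in the control. NT5E, a surface nucleotidase, had 1.23 and 45.9 (-4.39), and IGFBP7, which binds insulin-like growth factors, had 1.76 and 54.1 (-4.32). The other 4 were ANKRD1, CYR61, THBS1 and CTGF, of which ANKRD1, CYR61 and CTGF are classical targets of the coactivators YAP and TAZ.

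**Figure D3:**
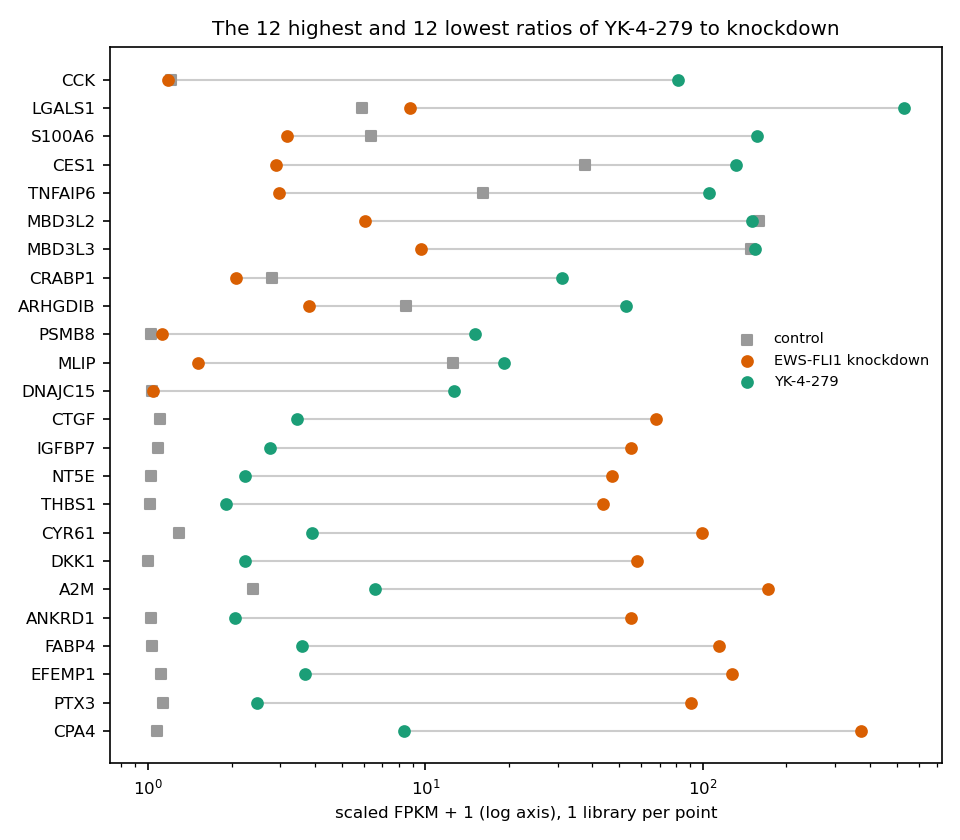
Scaled FPKM + 1 (x axis, log) in the control (grey squares), knockdown (orange) and YK-4-279 (green) libraries for the 12 genes with the highest and the 12 with the lowest ratios, 1 library per point and no error bars. In the lower 12 the control sits at the left and the knockdown at the right, while in the upper 12 the YK-4-279 library is at the right for all but MBD3L2.

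YAP and TAZ are coactivators that enter the nucleus when cells spread on a stiff matrix and act through TEAD factors on DNA. Of 29 YAP and TAZ target and pathway genes listed, 22 were compared, 17 were lower with YK-4-279 than after knockdown and 0 higher. Their median log2 ratio was -1.59, or -1.43 relative to genes of like level and -1.44 with no filter on low values. ANKRD1, an ankyrin-repeat protein, had 1.06 scaled FPKM with YK-4-279 and 54.0 after knockdown (-4.74, SE 0.09). CYR61, a secreted matricellular protein, had 2.89 and 98.1 (-4.67, SE 0.07), and CTGF, its relative, had 2.46 and 67.0 (-4.30, SE 0.07). The 3 highest members lay within the threshold, with TEAD4 at 1.26 and 1.12 (0.09) and TEAD2 at 2.79 and 3.42 (-0.22), and the phosphatase PTPN14 was at 6.05 and 7.79 (-0.32).

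Promoters of 2 of these genes are shown because they hold CATTCC on either strand, a short motif that TEAD factors bind. The sequences are the 250 bases before the start of transcription, from RefSeq on build GRCh38.p14, with matches to CATTCC or its reverse complement GGAATG in capitals.
ANKRD1 promoter, chr10:90921088-90921337, minus strand: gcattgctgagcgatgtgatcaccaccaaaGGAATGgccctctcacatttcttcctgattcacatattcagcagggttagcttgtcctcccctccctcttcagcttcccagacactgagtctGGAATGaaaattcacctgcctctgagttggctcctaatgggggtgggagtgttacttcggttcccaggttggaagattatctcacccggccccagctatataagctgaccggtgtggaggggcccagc
CTGF (RefSeq symbol CCN2) promoter, chr6:131951373-131951622, minus strand: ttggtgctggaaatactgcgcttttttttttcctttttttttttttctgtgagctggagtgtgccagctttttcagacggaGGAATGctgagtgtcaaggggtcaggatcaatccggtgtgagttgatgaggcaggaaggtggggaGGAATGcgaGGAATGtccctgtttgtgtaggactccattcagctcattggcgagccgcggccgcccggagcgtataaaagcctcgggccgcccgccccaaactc
ANKRD1 held 2 matches and CTGF 3, the nearest ones 123 and 90 bases before the start. Over 27305 RefSeq promoters of this length 11.9% held a match, and so did 4 of the 15 compared members matched to a promoter. A match is a run of letters and not evidence of binding.

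Lysosomes are acidic organelles that digest proteins, lipids and sugars, and many of their genes are driven by the factors TFEB, TFE3 and MITF. Of 49 lysosomal genes listed, 35 were compared, 26 were lower with YK-4-279 than after knockdown and 0 higher. Their median level was 7.13 scaled FPKM with YK-4-279, 27.9 after knockdown and 6.97 in the control, and their median log2 ratio was -1.61. Relative to genes of like level the median was -1.83, with 27 lower and 0 higher, and with no filter on low values it was -1.40. GPNMB, a lysosomal membrane glycoprotein, had 5.51 with YK-4-279, 118 after knockdown and 0.107 in the control (-4.19, SE 0.05). CTSA, the protective protein cathepsin A, had 7.13, 101 and 8.16 (-3.65, SE 0.06). On scaled values CTSA thus had similar levels with the compound and in the control, and as deposited 3.366 and 25.12 FPKM.

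The lysosomal members with the highest ratios lay within the threshold. ATP6V1A, a catalytic subunit of the proton pump, had 28.0 scaled FPKM with YK-4-279 and 23.7 after knockdown (0.23), GLA, alpha-galactosidase, 25.7 and 27.9 (-0.11), and PPT1, a thioesterase, 172 and 190 (-0.14). The promoters of CTSA and LAMP1 are shown because they hold TCACGTGA, the palindrome at the heart of the element bound by TFEB, which 0.89% of all RefSeq promoters and 5 of the 23 matched members held. LAMP1, a major protein of the lysosomal membrane, had 1.963 scaled FPKM with YK-4-279 and 11.5 after knockdown (-2.08).
CTSA promoter, chr20:45891085-45891334, plus strand: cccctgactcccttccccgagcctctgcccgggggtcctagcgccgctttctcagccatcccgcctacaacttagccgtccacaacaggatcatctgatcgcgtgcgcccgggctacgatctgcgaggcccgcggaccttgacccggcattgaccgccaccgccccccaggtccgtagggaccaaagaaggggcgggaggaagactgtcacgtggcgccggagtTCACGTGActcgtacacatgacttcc
LAMP1 promoter, chr13:113296989-113297238, plus strand: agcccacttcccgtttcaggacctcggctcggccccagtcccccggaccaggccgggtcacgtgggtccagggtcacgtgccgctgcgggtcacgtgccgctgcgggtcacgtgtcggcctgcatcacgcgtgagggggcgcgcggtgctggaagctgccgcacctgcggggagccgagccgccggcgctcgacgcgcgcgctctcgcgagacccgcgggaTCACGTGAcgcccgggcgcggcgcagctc
The match lies 19 bases before the start of CTSA and 22 before that of LAMP1.

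Matrix and mesenchymal genes build the fibrous surroundings of connective tissue cells. Of 52 listed, 33 were compared, 26 were lower with YK-4-279 than after knockdown and 2 higher. Their median level was 3.60 scaled FPKM with YK-4-279, 36.0 after knockdown and 0.859 in the control, and the median log2 ratio was -2.27, or -2.19 relative to genes of like level. With no filter on low values the median log2 ratio was -1.56. THBS1, the adhesive glycoprotein thrombospondin-1, had 0.902 with YK-4-279 and 42.6 after knockdown (-4.52, SE 0.06), and CYR61 and CTGF, given above, completed the 3 lowest. TWIST1, a mesenchymal transcription factor, was one of the 2 higher members, at 17.1 and 5.92 (1.39). The other was DCN, the proteoglycan decorin, at 5.76 and 1.70 (1.33). TIMP1, an inhibitor of matrix proteases, was abundant in both, at 461 and 441 (0.07).

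Genes listed as repressed by EWS-FLI1 overlap the matrix list and moved with it. Of 41 listed, 27 were compared, 18 were lower with YK-4-279 than after knockdown and 4 higher, and the median log2 ratio was -1.98. With no filter on low values that median was -1.07. Members near 0 in the control, such as DKK1, could enter only through the other libraries, so the filter bears on these counts. EFEMP1, DKK1 and CYR61 were the lowest, between -5.10 and -4.67. The list also held the opposite extreme, since S100A6, TNFAIP6 and S100A4 were higher with YK-4-279. S100A4, a calcium-binding protein of motile cells, had 37.2 scaled FPKM with YK-4-279, 5.27 after knockdown and 15.2 in the control (2.61).

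Genes listed as activated by EWS-FLI1 stood the other way. Of 55 listed, 44 were compared, 25 were higher with YK-4-279 than after knockdown and 6 lower, with a median log2 ratio of 1.32, or 0.96 relative to genes of like level. CCK, given above as the highest of all genes, is on this list. It was scarce in the control (0.206 scaled FPKM) as well as after knockdown (0.181), so it was not lowered from the control by knockdown as UGT3A2 was. UGT3A2, a glycosyltransferase, had 79.5 scaled FPKM with YK-4-279, 8.09 after knockdown and 87.2 in the control (3.15, SE 0.05). NR0B1, an orphan nuclear receptor, had 49.4, 4.73 and 37.95 (3.14, SE 0.08). UGT3A2 and NR0B1 were lowest after knockdown. CALCB, a calcitonin-related peptide, went against the list with 15.2, 181 and 21.1 (-3.49), as did the growth factor PDGFC at 2.70 and 13.2 with YK-4-279 and after knockdown (-1.94) and the homeobox factor DLX2 at 2.50 and 11.2 (-1.80).

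Markers of Ewing sarcoma cells served as a check of the line. Of 10, 8 were compared and 7 were higher with YK-4-279 than after knockdown, with a median log2 ratio of 1.70, or 1.56 relative to genes of like level. STEAP1, a metalloreductase at the cell surface, had 148 scaled FPKM with YK-4-279, 30.8 after knockdown and 177 in the control (2.23). NPY1R, a receptor for neuropeptide Y, had 18.1, 4.58 and 19.3 (1.77), and CCND1, cyclin D1, had 12.1, 3.24 and 20.2 (1.62). PAX7, a paired-box factor, had 2.59, 0.419 and 1.99 (1.34). NKX2-2 was low in all 3 libraries, at 1.374, 1.497 and 0.852, and CD99 was listed at 0 in all 3. All of these markers except PAX7 also stand on the list of activated genes, so the lists are not separate evidence.

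Actin filaments and the proteins that bind them give mesenchymal cells their stress fibres and contraction. Of 50 genes listed, 43 were compared, 15 were lower with YK-4-279 than after knockdown and 5 higher, with a median log2 ratio of -0.54, or -0.99 relative to genes of like level. TPM1, a tropomyosin, had 2.19 scaled FPKM with YK-4-279, 49.4 after knockdown and 1.59 in the control (-3.98). CALD1, caldesmon, had 2.66, 53.02 and 0.866 (-3.88), and VCL, vinculin, had 18.01, 156 and 14.3 (-3.04). Of the 3 highest members, the cofilin CFL2 was at 37.0 and 9.04 with YK-4-279 and after knockdown (1.92). The linker EZR had 46.9 and 13.6 (1.72), and ARPC3, of the Arp2/3 complex, had 306 and 104 (1.55), or 0.57 relative to genes of like level.

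Integrin and focal adhesion genes were divided, with 9 of 19 compared lower with YK-4-279, 2 higher and a median log2 ratio of -0.64, or -0.60 relative to genes of like level. That median was -0.30 with no filter on low values and 0.11 with the filter at 5 FPKM, so its sign depends on the filter. NEDD9, a docking protein of adhesions, had 1.10 scaled FPKM with YK-4-279 and 13.7 after knockdown (-2.81). ITGB5 had 1.82 and 18.7 (-2.81) and ITGAV, its partner in the vitronectin receptor, had 2.49 and 20.9 (-2.65). The 2 higher members were the caveolins. CAV1 had 694 with YK-4-279, 84.1 after knockdown and 247 in the control (3.03, SE 0.02), and CAV2 had 36.4, 5.17 and 20.7 (2.60). Both were lowest after knockdown. The deposited FPKM of CAV1 was 762.5 in the control against 328 with the compound, and that of CAV2 63.82 against 17.19. For both genes the order of those libraries thus depends on the scaling.

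Cell cycle genes were examined as lists of G2/M and of G1/S genes. The G2/M and mitosis list holds the machinery that condenses, aligns and parts chromosomes, and of its 63 genes 61 were compared. Of these 36 were higher with YK-4-279 than after knockdown and 1 lower, with a median log2 ratio of 1.15, or 0.84 relative to genes of like level, where 24 were higher and 1 lower. CCNB1, the mitotic cyclin B1, had 564 scaled FPKM with YK-4-279, 72.8 after knockdown and 283 in the control (2.94, SE 0.03). CKS2, a small subunit of cyclin-dependent kinases, had 1491, 213 and 734 (2.80, SE 0.02), and PBK, a mitotic kinase, had 119, 18.2 and 92.2 (2.64, SE 0.04). All 3 genes were lowest after knockdown. Scaled values put YK-4-279 above the control, while for all 3 genes the deposited FPKM ran the other way. The control had 872.1 for CCNB1, 2260 for CKS2 and 284.2 for PBK, against 266.6, 704.6 and 56.21 with YK-4-279.

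WEE1, the kinase that holds CDK1 inactive before mitosis, was the 1 lower gene of that list, at 3.01 scaled FPKM with YK-4-279, 14.5 after knockdown and 3.09 in the control (-1.95). ESPL1, separase, stood at 1.45 and 1.56 with YK-4-279 and after knockdown (-0.06), and MYBL2, a transcription factor of cycling cells, at 5.05 and 5.35 (-0.07). The promoters of CKS2 and CKS1B are shown because each holds TTTGAA, the core of the cell cycle homology region, near its start. CKS1B is the paralogue of CKS2 and had 1050 scaled FPKM with YK-4-279 and 173 after knockdown (2.59).
CKS2 promoter, chr9:89310945-89311194, plus strand: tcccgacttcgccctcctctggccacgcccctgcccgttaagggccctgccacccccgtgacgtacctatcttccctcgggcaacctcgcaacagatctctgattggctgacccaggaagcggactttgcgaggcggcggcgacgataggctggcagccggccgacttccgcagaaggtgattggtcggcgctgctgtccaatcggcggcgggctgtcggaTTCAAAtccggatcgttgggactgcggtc
CKS1B promoter, chr1:154974431-154974680, plus strand: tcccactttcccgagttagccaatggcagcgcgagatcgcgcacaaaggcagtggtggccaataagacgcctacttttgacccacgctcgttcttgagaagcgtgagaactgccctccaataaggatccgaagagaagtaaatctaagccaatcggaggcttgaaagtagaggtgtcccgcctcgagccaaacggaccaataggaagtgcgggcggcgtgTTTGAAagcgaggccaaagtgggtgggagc
The match lies 24 bases before the start in CKS2, where it reads TTCAAA, and 25 bases before it in CKS1B. Of 50 matched members 26 (52%) held a match in these 250 bases, against 13.6% of all RefSeq promoters.

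For each pair of promoters printed, the genes had the largest ratios past the threshold among list members that held the motif. Members on chr8 were left out of that choice, so a member there with a larger ratio would not be shown. The pairs illustrate the motif and do not stand for their lists. All 3 shares are descriptions of letters in a window. None was tested against promoters of like base composition.

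The G1/S and DNA replication list, of licensing factors, polymerases and enzymes of nucleotide supply, had 54 of 60 genes compared, 25 higher with YK-4-279 than after knockdown and 0 lower. The median log2 ratio was 0.98, or 0.67 relative to genes of like level, where 18 were higher and 1 lower. GINS1, a subunit of the replicative helicase, had 37.1 scaled FPKM with YK-4-279, 6.20 after knockdown and 45.2 in the control (2.40). CDC7, a kinase that fires origins, had 31.6, 5.65 and 44.5 (2.29), and TIPIN, which steadies replication forks, had 29.6, 6.99 and 36.9 (1.94). With the compound these stood below the control, on scaled values and as deposited. CDK4, MCM5 and POLE were the lowest members, at -0.92, -0.74 and -0.47.

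Replication-dependent histones, which cells make in S phase, had no common direction, with 3 of 22 compared higher with YK-4-279, 9 lower and a median log2 ratio of -0.67. HIST1H4C, the most abundant of those named, had 4177 scaled FPKM with YK-4-279, 969 after knockdown and 8691 in the control (2.11). HIST1H1D was at 2.06 and HIST1H2BH at 1.55. HIST1H4H had 5.80, 82.0 and 8.68 (-3.61), HIST2H2BE was at -2.52 and HIST1H3E at -2.43. Most such transcripts lack a poly(A) tail, and near-identical copies may share reads, so these values are uncertain.

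Tubulins form microtubules, and associated proteins stabilise or sever them. Of 46 listed, 36 were compared, 9 were higher with YK-4-279 than after knockdown and 8 lower, with a median log2 ratio of 0.05. TUBA1B, an abundant alpha-tubulin, had 2184 scaled FPKM with YK-4-279, 548 after knockdown and 2685 in the control (1.99). MAPT, which encodes tau, had 15.3, 3.01 and 17.8 (2.02), and TUBA4A had 13.6, 3.85 and 2.85 (1.59). On the low side CLIP1, which tracks microtubule ends, had 1.45, 8.65 and 1.24 (-1.98). MAP1B, a stabiliser in neurons, stood at -1.84 and the neuronal isotype TUBB3 at -1.73.

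The large abundant complexes were higher with YK-4-279 as groups. Cytosolic ribosomal proteins included 33 of 67 higher and 0 lower (median 0.99), and 100% of those compared lay in the most abundant of the 5 groups by control level. Relative to genes of like level that median was 0.01, with 0 past the threshold either way. Proteasome subunits included 16 of 31 higher and 0 lower (median 1.04, or 0.08 relative to genes of like level). Oxidative phosphorylation subunits included 37 of 69 higher and 0 lower (median 1.02, or 0.12 on that measure). These 3 lists thus stood near the median of genes of like level. That reference includes the lists' own members, so a value near 0 is partly built in.

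Mitochondrial ribosomal proteins translate the messages of the mitochondrial genome. Of 69 compared 44 were higher and 0 lower, with a median log2 ratio of 1.19. Relative to genes of like level the median was 0.64, with 10 higher and 0 lower. MRPL20 had 409 scaled FPKM with YK-4-279 and 100.3 after knockdown (2.02), MRPS17 stood at 1.98 and MRPS28 at 1.93. MRPL12, the lowest, had 1.79, 4.07 and 31.1 in the YK-4-279, knockdown and control libraries (-0.86), so it was scarce in both treated libraries. Ribosome biogenesis factors included 26 of 49 higher and 0 lower (median 1.02, or 0.43 relative to genes of like level), with MRTO4 at 1.94 and NIP7 at 1.88.

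Splicing factors included 21 of 63 higher with YK-4-279 and 1 lower (median 0.69, or 0.03 relative to genes of like level). The small proteins of the snRNP core led, with SNRPE at 222 scaled FPKM with YK-4-279 and 43.8 after knockdown (2.32), SNRPF at 477 and 101 (2.23) and SNRPB at 101 and 25.2 (1.965). SRSF11, an SR-like protein, was the lower one, at 19.7 and 44.2 (-1.12). Heat shock proteins and TRiC subunits included 13 of 31 higher and 1 lower (median 0.76, or 0.04 on the like-level measure). DNAJC15, given above, was the highest. HSPA8, the constitutive HSP70, had 2296 and 598 (1.94), and BAG3, a co-chaperone of stressed cells, had 2.21 and 5.74 (-1.07). On the like-level measure HSPA8 was at 0.95 and BAG3 at -0.71, both within the threshold. Aminoacyl-tRNA synthetases included 4 higher genes and 0 lower among 22 (median 0.63, or -0.17 relative to genes of like level), with FARSB the highest at 2.09.

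**Figure D4:**
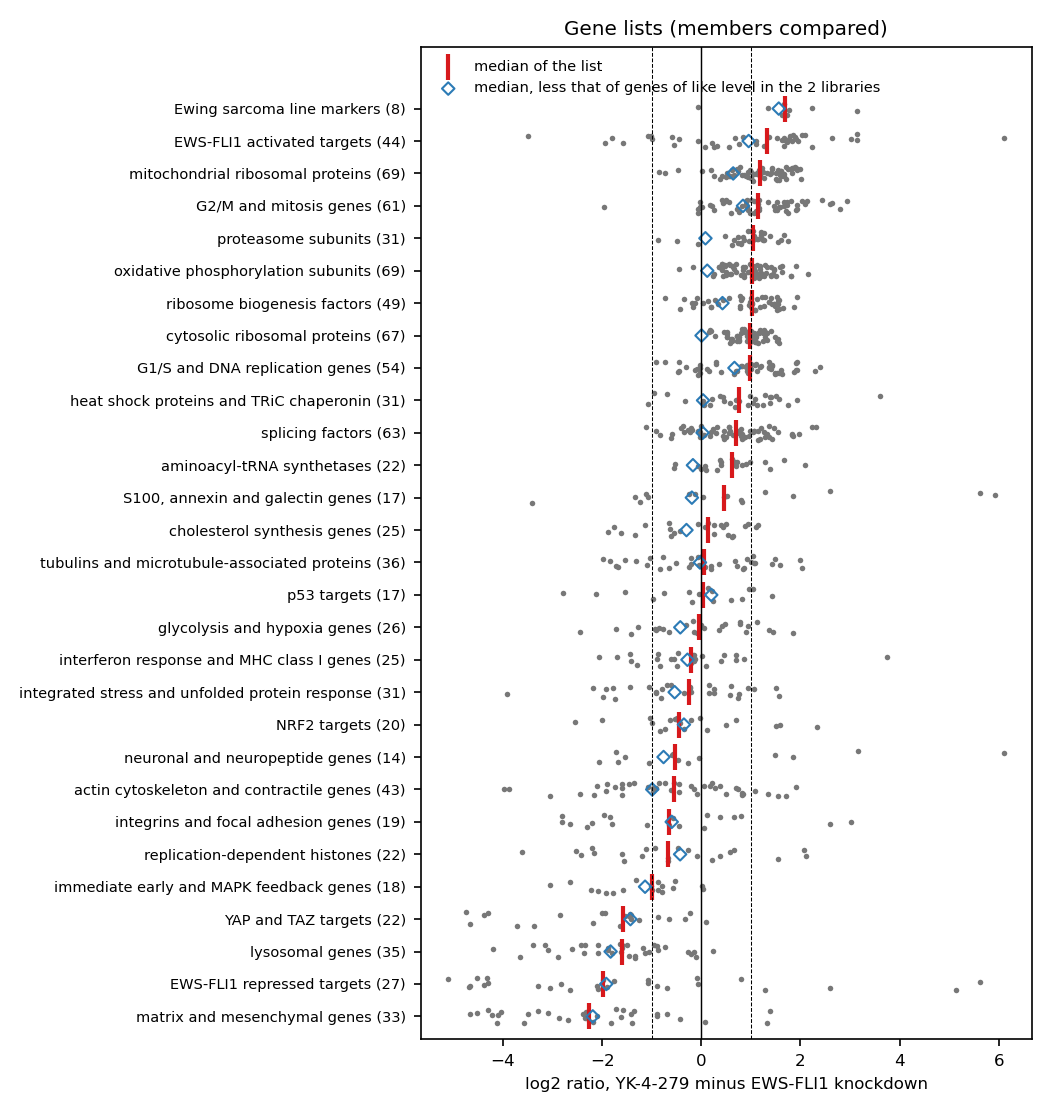
Log2 ratio, YK-4-279 minus knockdown (x axis), of each compared member (grey points, jittered vertically) of the 29 lists with at least 8 members compared (y axis, number compared in brackets), with the list median (red bar) and the median relative to genes of like level (blue diamond). Matrix, repressed-target, lysosomal and YAP and TAZ lists keep their place under both, while the cytosolic ribosomal, proteasome and oxidative phosphorylation medians near 1 move to about 0.

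Immediate early genes and feedback inhibitors of MAPK signalling report growth factor input. Of 33 listed, 18 were compared, 9 were lower with YK-4-279 than after knockdown and 0 higher, with a median log2 ratio of -1.0003, or -1.13 relative to genes of like level. With no filter on low values the median was -0.85. SPRY1, an inhibitor of receptor kinase signalling, had 0.260 scaled FPKM with YK-4-279, 9.39 after knockdown and 0.135 in the control (-3.04). PHLDA1 had 0.376, 7.60 and 0.133 (-2.64), and DUSP6, the phosphatase of ERK, had 1.71, 11.6 and 0.599 (-2.22). Transcription factors ETV4 and EGR2 were near 0, at 0.02 and 0.04, and KLF10 was at -0.53.

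Stress programmes held genes that stood both ways. Among 31 compared genes of the integrated stress response and the unfolded protein response, 3 were higher with YK-4-279 and 8 lower (median log2 ratio -0.25). Relative to genes of like level, 2 were higher and 11 lower (median -0.54). NUPR1, a stress-induced chromatin protein, had 0.761 scaled FPKM with YK-4-279 and 25.7 after knockdown (-3.92), ATF3 had 0.571 and 6.13 (-2.18), and DNAJB9, a co-chaperone of the endoplasmic reticulum, had 0.768 and 5.99 (-1.98). The enzymes MTHFD2, PSAT1 and ASNS, of one-carbon, serine and asparagine synthesis, were the 3 higher members, at 1.57, 1.51 and 1.07, but at 0.58, 0.67 and 0.38 relative to genes of like level. NRF2 targets, which defend against oxidants, included 3 higher genes and 3 lower among 20 (median -0.45), or 1 higher and 7 lower relative to genes of like level. Over all compared genes 15.3% were higher and 14.5% lower, so the first NRF2 counts are near the common shares. On the like-level measure the common shares were 9.94% and 13.5%, and both lists held a larger share of lower genes than that. AKR1B10, an aldo-keto reductase, had 7.28 and 0.643 (2.33), the efflux pump ABCC1 had 2.66 and 20.3 (-2.54), and the haem oxygenase HMOX1 had 0.644 and 5.62 (-2.01).

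Targets of p53 included 2 of 17 higher with YK-4-279 and 3 lower (median 0.04), near the shares of 15.3% and 14.5% over all compared genes. The DNA repair factor DDB2 had 12.02 scaled FPKM with YK-4-279 and 3.85 after knockdown (1.43), and the polymerase POLH was at 1.05. TP53INP1 had 2 and 19.8 (-2.79), the death receptor TNFRSF10B had 7.51 and 36.1 (-2.12), and GADD45A was at -1.54. Among 25 interferon response and MHC class I genes, PSMB8 alone was higher and 5 were lower (median -0.21). Relative to genes of like level 2 were higher, PSMB8 and USP18 (1.22), and 9 lower (median -0.28). Over all compared genes 9.94% were higher and 13.5% lower on that measure. STAT2, a transducer of interferon signals, had 5.79, 27.3 and 11.9 with YK-4-279, after knockdown and in the control (-2.06). IFI6 was at -1.70, while ISG15 was within the threshold at 0.70.

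Among 25 cholesterol synthesis genes, 2 were higher with YK-4-279 and 5 lower (median log2 ratio 0.14), or 0 higher and 7 lower relative to genes of like level (median -0.30). SQLE, squalene epoxidase, had 31.0 scaled FPKM with YK-4-279, 108 after knockdown and 38.2 in the control (-1.77), and TM7SF2 was at -1.88, against FDPS at 1.13 and ACAT2 at 1.10, which were 0.15 and 0.11 relative to genes of like level. Glycolysis and hypoxia genes included 4 of 26 higher and 4 lower (median -0.04), or 1 higher and 3 lower relative to genes of like level (median -0.42). The first counts are near the shares over all compared genes, 15.3% higher and 14.5% lower. The glucose transporter SLC2A1 had 1.06 and 5.81 with YK-4-279 and after knockdown (-1.72), and the peptide ADM had 0.298 and 6.05 (-2.44). ENO2, TPI1 and LDHA were the highest, at 1.86, 1.45 and 1.37, but at 1.82, 0.47 and 0.39 relative to genes of like level.

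S100, annexin and galectin genes ranged from LGALS1 at 5.92 to LGALS3BP at -3.41. Of 17 compared 5 were higher with YK-4-279 and 5 lower, with a median of 0.46, or -0.19 relative to genes of like level. LGALS3BP, a secreted glycoprotein that binds galectins, had 6.57 scaled FPKM with YK-4-279, 79.4 after knockdown and 1.16 in the control. The annexins ANXA11 and ANXA6 were lower, at -1.33 and -1.24.

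Neuronal and neuropeptide genes included 4 of 14 higher with YK-4-279 and 5 lower (median -0.52). PENK, the enkephalin precursor, had 8.95 scaled FPKM with YK-4-279, 0.115 after knockdown and 0.058 in the control (3.16), and with CCK it was high with the compound alone. The granin SCG2 had 2.29, 12.7 and 1.601 (-2.06), and MAP2, a dendritic microtubule protein, had 1.23, 6.16 and 1.596 (-1.68). Of 12 metallothioneins, small proteins that bind zinc and copper, 3 were compared and 2 were higher. MT1X had 345, 82.9 and 167 (2.04), MT1E had 9.91 and 0.177 with 0 listed in the control (3.21), and MT2A was alike in both treated libraries at 178 and 167 (0.09).

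Markers of other cell types were examined because lists of matrix genes overlap with fibroblasts. Of 7 endothelial and 7 leukocyte markers 0 were compared, and their levels summed to between 0.244 and 2.29 scaled FPKM in the 3 libraries. CLDN5 and CD3E were listed at 0 in all 3, and so was KRT5 among the epithelial markers, whose sums ran from 2.60 to 6.56. The 7 fibroblast markers summed to 57.9 after knockdown, 28.6 with YK-4-279 and 26.5 in the control. FAP at -1.85, LUM at -1.35 and PDGFRB at -1.19 were lower with YK-4-279 than after knockdown and DCN was higher. PDGFRB stood at 0.06 relative to genes of like level in the control. The part of fibroblast-type cells in the matrix result was not tested.

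Zeros and unnamed loci bound what the ratio can show. Of the compared genes, 38 were listed at 0 in 1 or both libraries of the ratio, 34 of them small RNA genes such as small nucleolar RNAs. Such zeros may be failed estimates, and no fold is printed for these genes. The nuclear RNA MALAT1, singled out after its values were seen, was one such gene, listed at 0 after knockdown and at 510 scaled FPKM with YK-4-279. Over 61722 loci with no gene name and above 0 in both libraries, the median log2 ratio was 0.75 on the same scale with nothing added.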

How the data were processed

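The files hold 1 RNA-seq library per group of TC32 cells as FPKM per locus, which the authors deposited. The submitters' processing notes name Cufflinks 2.2.1, TopHat and CASAVA 1.8.2, with hg19 (GRCh37) as build. Scaling between libraries, annotation and the treatment of multi-mapping reads: not given in the sources used here. Per the labels' protocols, cDNA came from total RNA with a SMARTer kit and was amplified by PCR.

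Of 88434 loci, 24751 carried a gene name and were summed to 22714 names. The 9939 names with a mean deposited FPKM of at least 1 over the 3 libraries were compared. Each library was scaled by the median of its ratios to the geometric mean over 9883 of these genes above 0 in all 3, and 1 was added before log2. The control enters the scale, the filter and the ranking by level only. Fragments were estimated from the lowest values of 26 and 27 olfactory receptor genes (1 fragment in 1 kb was worth about 0.0171 FPKM in the knockdown library and 0.0126 with YK-4-279) and GENCODE release 29 lengths, known for 88% of genes.

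The rule for named genes takes FLI1, EWSR1 and DHX9, the 12 highest and 12 lowest ratios among single gene names above 0 in both libraries, and the 3 highest and 3 lowest compared members of each of 34 lists; the text describes most of these and some are not reported here. LAMP1 and CKS1B were added by the rule for promoters, and the text says where a gene was chosen otherwise. The lists were written from general knowledge. The members and lists were chosen with earlier results of these data known, so they are not independent evidence. The script was tested on simulated data. Analyses used Python 3.11.15 with pandas 2.3.3 and numpy 2.4.6. Alternatives are described at the end of the text.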

Additional observations from a re-analysis of the deposited data

How the results depend on the processing

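Of 140 named genes past the threshold, each kept its direction under every one of the 12 alternatives that could give it a value (111 genes with the filter at 5), except PDGFRB, which stood at 0.0589 relative to genes of like level in the control. Fewer stayed past the threshold: 123 as deposited, 106 relative to genes of like level in the control and 116 relative to those in the compared libraries. Higher genes numbered 505 on values as deposited, 776 relative to genes of like level in the control and 988 relative to genes of like level in the compared libraries, against 1516. With the filter raised to 5 FPKM, lower genes numbered 655 against 1442. With a pseudocount of 0.1 the counts were 1839 and 2054, and with a scale over all named genes 1825 and 1167. Higher genes made up 19.1% of calls as deposited, 39.8% relative to control level, 67.8% with the filter at 5 and 61% with the scale over all names, against 51.3%. Lists of 3 or more compared genes with a median of at least 1 numbered 8, but 2 as deposited, 4 on deposited ratios centred on their median and 2 relative to genes of like level by either ranking, 6 with no filter, 9 with a pseudocount of 0.1 or a scale from the compared libraries, and 10 with a scale over all named genes. Lists with a median of -1 or less numbered 6, and between 4 and 7 under the alternatives. Some list medians changed sign. Of 31 such medians, 25 kept it relative to genes of like level in the control. As deposited 27 did, and also 27 relative to genes of like level in the compared libraries. With no filter 28 of 31 kept it, and with the filter at 5 FPKM 28 of 30. The level in the compared libraries, the control's position as deposited, the scale over all named genes and the removal of joined names and small RNA genes were added after seeing the data. No paired analysis was possible because there is 1 library per group. Depth limits scarce genes most: the SE from counting was up to 0.17 for 95% of genes of known length. With 1 library a side the spread between cultures stays unknown.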
